A study of Mus musculus with 12 samples.

Results

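A set of 10 genes of the actin cytoskeleton and of its transcriptional control by serum response factor (SRF) was followed in TM3 cells treated with methoxyacetic acid (MAA): Ablim3, Acta2, Actg2, Tagln, Cnn1, Cnn2, Myl9, Tpm1, Vcl and Srf. They were chosen by name and, for Ablim3, selected on its measured log2 ratios at 8 h and 24 h, which are among the largest increases, so its values at those times are given as a description with no test. The array names its probes by accession, and 16 of the 41174 probes were matched to 9 of the 10 genes through RefSeq accessions, while Myl9 was not analysed here. Where a gene had several probes, the probe with the highest mean signal was used for counts of genes and is called the lead probe.

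TM3 is a line of Leydig cells, the testosterone-producing cells of the testis, and MAA is the active metabolite of the solvent ethylene glycol monomethyl ether. Subconfluent cells in medium with horse serum and fetal bovine serum received MAA at 5 mM or at 1 mM, harvest being at 3, 8 or 24 h, and control cultures stayed in that medium alone until the same hour. RNA of each of the 6 conditions was set against control RNA on 2 two-colour Agilent arrays, with MAA-treated RNA in Alexa 555 on replicate 1 and in Alexa 647 on replicate 2. Each RNA was a pool of 3 cultures of this 1 cell line, and the replicates of a condition held separate pools of MAA-treated cells. Whether arrays of the same time shared control cultures is not given in the sources used here.

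SRF is a transcription factor that binds a short AT-rich element called the CArG box. It works with ternary complex factors, which respond to MAP kinase signalling and drive immediate early genes, and with myocardin-related transcription factors (MRTFs), which are held in the cytoplasm by monomeric actin and enter the nucleus when actin polymerizes. Many targets of the MRTF arm encode actin and the proteins that bind it, and Srf is itself such a target. In the testis these genes are best known from the contractile peritubular myoid cells around the seminiferous tubules.

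The promoters are shown because the genes share SRF as a regulator, which was also a reason to group them, so a match here describes the group and is not a finding about it. Of 32851 mouse promoters in RefSeq (GRCm38.p6), 1.47% held a CArG box in the 250 bases before the gene start on either strand, and 8.59% held a box or a copy with 1 mismatch in its AT-rich middle. The table holds promoters of 7 of the 10 genes. A box stood in 4 of these, those of Srf, Vcl, Cnn2 and Myl9, and the Acta2 promoter held only copies with 1 mismatch. No match was found in the windows of Cnn1 and Tpm1. The capitals mark the box or its mismatched copy, with 20 bases on each side, read 5′ to 3′ on the strand of the gene.
Srf, chr17:46556215-46556264, minus strand: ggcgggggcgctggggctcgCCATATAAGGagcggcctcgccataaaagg
Srf, chr17:46556195-46556244, minus strand: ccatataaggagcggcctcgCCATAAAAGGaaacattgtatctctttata
Vcl, chr14:20929151-20929200, plus strand: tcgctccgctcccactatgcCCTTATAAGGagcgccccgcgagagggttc
Cnn2, chr10:79988524-79988573, plus strand: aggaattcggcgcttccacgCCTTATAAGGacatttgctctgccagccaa
Acta2, chr19:34255428-34255477, minus strand: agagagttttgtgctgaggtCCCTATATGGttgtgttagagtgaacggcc
Acta2, chr19:34255378-34255427, minus strand: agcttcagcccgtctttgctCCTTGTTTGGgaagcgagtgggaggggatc
The Vcl and Cnn2 boxes are the same 10 letters, and the pair of Srf boxes lies within 82 bases of the gene start.

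All values below are log2 ratios of MAA over control unless a signal or a channel level is named. A call needed an unadjusted limma p under 0.005 together with a change of more than 2-fold for 5 mM, or more than 1.5-fold for 1 mM. Adjusted p-values follow Benjamini-Hochberg and take in all probes. The pair of arrays of a condition correlated over all probes with r between -0.134 at 1 mM 3 h and 0.644 at 5 mM 24 h, so the small ratios at 1 mM 3 h are the least repeatable. The standard error of a log2 ratio, with n = 2 arrays, had a median of 0.150 over all probes.

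The label of the line was set against marker genes in the 12 control channels. Star, Cyp17a1 and Insl3, genes of Leydig cells, were well above background on all 12, while Cyp11a1, Hsd3b1 and Lhcgr were on none. Of 10 myoid and smooth muscle markers, 5 were well above background on all 12 control channels, namely Smtn and the members Acta2, Cnn1, Tagln and Actg2, and Myocd and Kcnmb1 on none. Among other testis cells 3 of 5 Sertoli markers (Sox9, Gata1 and Wt1) and 3 of 4 germ cell markers (Ddx4, Prm1 and Tnp1) passed on all 12, and 0 of 2 macrophage markers did. With MAA some of these markers moved too. Of the macrophage markers Adgre1 was called higher at 24 h of both concentrations, with measured log2 ratios of 2.85 and 2.87 against control channels not well above background, and Ptprc was not called. Of 7 Leydig markers, Cyp11a1 was called higher at 24 h of both concentrations, with neither channel well above background at 1 mM, and Insl3 lower (-1.11) at 5 mM 24 h. Of the Sertoli markers, Sox9 was called higher at 3 h of both concentrations (1.37 with 5 mM and 0.80 with 1 mM) and Gata1 at 1 mM 24 h (0.94), and 0 of 4 germ cell markers were called. Of the 10 myoid markers, 0, 2 and 2 were called higher with 5 mM at 3, 8 and 24 h and 0, 2 and 3 with 1 mM, with members of the set among them. The part of other cells in the results was not tested, and in RNA of whole cultures fewer cells of a type cannot be told apart from less RNA per cell.

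With 5 mM MAA the group leaned to higher expression, led by Vcl, Cnn1 and Cnn2. Among the 8 genes other than Ablim3, 0 were called at 3 h, 3 at 8 h (Cnn1, Cnn2 and Vcl) and 1 at 24 h (Vcl), and none was called lower. With 1 mM, 0 were called at 3 h, 1 at 8 h (Cnn1) and 2 at 24 h (Tagln and Cnn1). At an unadjusted limma p under 0.05 and any fold, 6, 6 and 6 were higher with 5 mM at 3, 8 and 24 h, against 16.16%, 19.26% and 17.98% of all probes. With 1 mM the counts were 2, 2 and 8, against 8.47%, 9.65% and 12.4%. Of all probes, 2.02%, 3.06% and 3.85% were called higher with 5 mM at 3, 8 and 24 h, and 1.32%, 1.72% and 3.26% with 1 mM. The shares called lower were 1.74%, 2.49% and 1.77% with 5 mM and 0.627%, 0.656% and 1.41% with 1 mM. Without a fold threshold, an adjusted p under 0.05 was reached upward by 6, 5 and 6 of the 8 genes with 5 mM and by 0, 2 and 5 with 1 mM, against 11.8%, 15.4% and 14.6% of all probes with 5 mM and 2.71%, 3.40% and 6.66% with 1 mM. The median log2 ratio of the 8 genes was 0.34, 0.51 and 0.52 with 5 mM, beside -0.10, -0.04 and 0.03 over all probes. With 1 mM it was 0.14, 0.16 and 0.34, beside 0.02, 0.02 and -0.07. The lead probes of the 8 genes were well above background in both channels of all 12 arrays. The shares over all probes take in dim probes as well, and a share over bright probes alone was not counted.

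**Figure D1:**
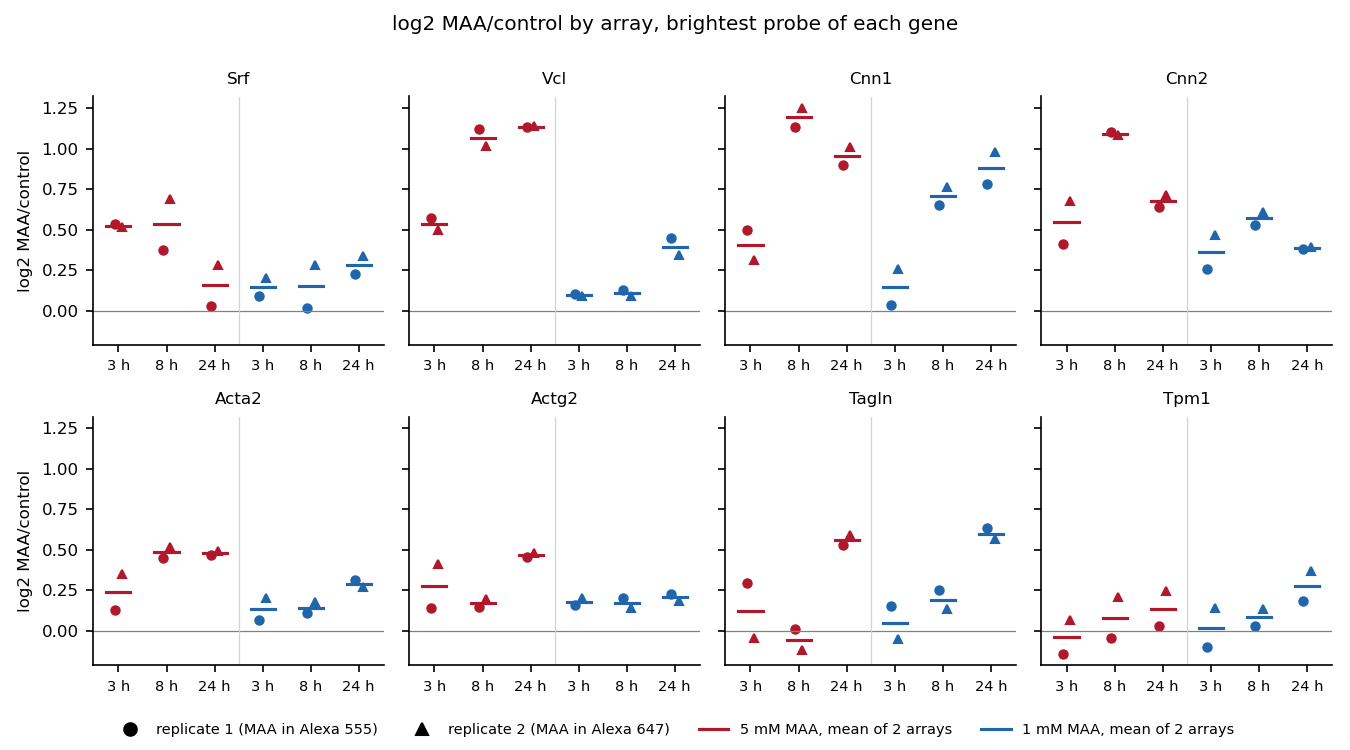
Log2 MAA/control (vertical axis) of 8 genes at each time of 5 mM (red) and 1 mM (blue), with a point for each of the 2 arrays and a bar at their mean. Vcl, Cnn1 and Cnn2 lie above 1 on both arrays at 5 mM 8 h, and Tpm1 stays between -0.14 and 0.37 on every array.

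Srf, the transcription factor itself, had log2 ratios of 0.53 and 0.51 on the pair of arrays at 5 mM 3 h, 0.38 and 0.69 at 8 h, and 0.03 and 0.28 at 24 h. With 1 mM the arrays gave 0.09 and 0.20 at 3 h, 0.02 and 0.28 at 8 h, and 0.23 and 0.34 at 24 h. All 12 arrays were above 0, and at 3 h and 8 h both arrays of 5 mM were above both of 1 mM. The rise of 0.52 ± 0.10 (SE, n = 2) at 5 mM 3 h had an adjusted p of 0.00859 and that of 0.53 ± 0.10 at 8 h had 0.00633, and neither passed 2-fold. At 24 h the mean was 0.16 with an adjusted p of 0.346. In the fit without a replicate block the differences of Srf between concentrations and between times did not pass an adjusted p of 0.05, with 95% intervals of 0.03 to 0.72 for 5 mM minus 1 mM at 3 h and -0.72 to -0.03 for 24 h minus 8 h at 5 mM.

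Vcl encodes vinculin, which links integrin adhesions to actin filaments. Its lead probe gave 0.57 and 0.50 at 5 mM 3 h, 1.12 and 1.02 at 8 h, and 1.13 and 1.14 at 24 h. With 1 mM it gave 0.10 and 0.09 at 3 h, 0.13 and 0.09 at 8 h, and 0.45 and 0.34 at 24 h. At every time both arrays of 5 mM were above both of 1 mM. The increases at 5 mM were 2.10-fold at 8 h (adjusted p = 2.2e-05) and 2.20-fold at 24 h (adjusted p = 2.11e-05). The 3 h rise of 0.53 had an adjusted p of 0.000528 but was under 2-fold. With 1 mM only the 24 h value of 0.39 passed an adjusted p of 0.05 among the 3 times (adjusted p = 0.00637).

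Among the 8 genes other than Ablim3, Vcl also passed the most contrasts between concentrations and times. The 5 mM response exceeded that to 1 mM by 0.44 ± 0.08 (SE) at 3 h (adjusted p = 0.0353), by 0.96 ± 0.08 at 8 h (adjusted p = 0.00134) and by 0.74 ± 0.08 at 24 h (adjusted p = 0.00297). The shares of all probes that differed between the concentrations were 3.40%, 10.1% and 8.41%. At 3 h the call was lost when any 1 of the 12 arrays was left out (0.40 to 0.47). At 5 mM the response was larger at 8 h than at 3 h by 0.53 (adjusted p = 0.0153) and at 24 h than at 3 h by 0.60 (adjusted p = 0.00337), contrasts passed by 5.10% and 15.8% of all probes. The former lost its call without replicate 2 at 3 h or either replicate at 8 h (0.48 to 0.59). The second Vcl probe, A_51_P297131, gave 0.45, 0.95 and 1.01 with 5 mM and 0.04, 0.02 and 0.34 with 1 mM, and it passed the same contrasts except that between concentrations at 3 h.

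Cnn1 and Cnn2 encode calponins, which bind actin filaments, Cnn1 being the form typical of smooth muscle. Cnn1 gave 0.50 and 0.31 at 5 mM 3 h, 1.14 and 1.25 at 8 h, and 0.90 and 1.01 at 24 h. With 1 mM it gave 0.04 and 0.26 at 3 h, 0.65 and 0.76 at 8 h, and 0.78 and 0.98 at 24 h. At 24 h the arrays of the concentrations overlapped, and at 8 h both arrays of 5 mM were higher. The calls were 2.29-fold at 5 mM 8 h (adjusted p = 6.72e-05), 1.63-fold at 1 mM 8 h (adjusted p = 0.00697) and 1.84-fold at 1 mM 24 h (adjusted p = 0.00144). At 5 mM 24 h the rise of 0.95 (adjusted p = 0.000198) was just under the 2-fold threshold, and without replicate 1 it was 1.01 and called. The 5 mM response was larger at 8 h than at 3 h by 0.79 ± 0.12 (adjusted p = 0.0169) and at 24 h than at 3 h by 0.55 ± 0.12 (adjusted p = 0.0236). Without replicate 2 at 3 h or either replicate of the later time, these calls were lost (0.70 to 0.85 and 0.46 to 0.61). The concentrations differed by 0.49 at 8 h, with an adjusted p of 0.0500065 that missed the threshold, and under 5 alternatives, normexp with loess among them, it passed (adjusted p of 0.0220 to 0.0351). They differed by 0.07 at 24 h, with a 95% interval of -0.22 to 0.36.

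Cnn2 gave 0.41 and 0.68 at 5 mM 3 h, 1.10 and 1.08 at 8 h, and 0.64 and 0.71 at 24 h. With 1 mM it gave 0.26 and 0.47 at 3 h, 0.53 and 0.61 at 8 h, and 0.38 and 0.39 at 24 h. The arrays of the concentrations overlapped at 3 h and were apart at 8 h and 24 h, and each concentration had its highest mean at 8 h. The 5 mM 8 h increase was 2.13-fold (adjusted p = 7.09e-05). It was larger than that of 1 mM by 0.52 ± 0.12 (adjusted p = 0.0305) and larger than at 5 mM 3 h by 0.55 ± 0.12 (adjusted p = 0.0408), and the former lost its call without any of the 8 arrays of 8 h and 24 h (0.48 to 0.56), the latter without any of 10 arrays, all but those of 1 mM 3 h (0.41 to 0.68). The fall of the response from 8 h to 24 h at 5 mM, -0.42, had an adjusted p of 0.0701.

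Acta2 encodes smooth muscle alpha-actin, and its 3 probes did not move alike. The lead probe, A_51_P450957, gave 0.13 and 0.35 at 5 mM 3 h, 0.45 and 0.52 at 8 h, and 0.47 and 0.50 at 24 h. It gave 0.07 and 0.20, 0.11 and 0.18, and 0.31 and 0.27 at the same times of 1 mM. All 12 ratios were above 0 and none reached 2-fold, the 5 mM means at 8 h and 24 h each being 0.48, with adjusted p of 0.00159 and 0.00179.

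The means of the other Acta2 probes were near 0 at 3 h and 8 h of 5 mM. A_52_P420504, printed at 10 spots whose log2 ratios varied within an array by an SD of 0.010 to 0.030, gave 0.03 and -0.04 at 5 mM 3 h, -0.06 and 0.05 at 8 h, and 0.57 and 0.77 at 24 h. Its 1 mM arrays gave -0.09 and 0.02 at 3 h, 0.21 and 0.24 at 8 h, and 0.69 and 0.86 at 24 h. A_52_P210078 had means of 0.01, 0.06 and 1.25 with 5 mM and -0.04, 0.51 and 1.43 with 1 mM. At 5 mM 3 h its arrays were apart, at 0.35 on replicate 1 and -0.34 on replicate 2. Both probes were thus highest at 24 h, with means at 1 mM no lower than at 5 mM, whereas the lead probe had reached its 5 mM level by 8 h. At 24 h A_52_P210078 was called with 5 mM (adjusted p = 0.000963) and 1 mM (adjusted p = 0.00245), and A_52_P420504 with 1 mM (adjusted p = 0.00133). From 8 h to 24 h at 5 mM the response rose by 0.68 (adjusted p = 0.0103) on A_52_P420504 and by 1.19 (adjusted p = 0.0208) on A_52_P210078, against a change of -0.0043 with a 95% interval of -0.24 to 0.23 on the lead probe. Actin genes are close in sequence and the probe sequences were not used here, so which actin RNA each probe bound was not tested.

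Tagln encodes transgelin (SM22-alpha), an actin-bundling protein of smooth muscle and fibroblasts. Its lead probe gave 0.29 and -0.04 at 5 mM 3 h, 0.01 and -0.12 at 8 h, and 0.53 and 0.59 at 24 h. With 1 mM it gave 0.15 and -0.05 at 3 h, 0.25 and 0.13 at 8 h, and 0.63 and 0.57 at 24 h. The 24 h arrays of each concentration were above all of its earlier arrays, and the concentrations overlapped at 24 h. The 24 h rise was 0.56 with 5 mM (adjusted p = 0.00321) and 0.60 with 1 mM (adjusted p = 0.00832). Only the latter was called, since the fold threshold was lower at 1 mM, and it was not called after normexp and loess (0.46), with the slide as a block (0.55) or without replicate 1 (0.57). At 24 h the concentrations differed by -0.04 with a 95% interval of -0.35 to 0.27. At 5 mM the response at 24 h exceeded that at 8 h by 0.62 (adjusted p = 0.0313), a contrast that 8.91% of all probes passed, and this call was lost without any of the 8 arrays of 8 h and 24 h (0.55 to 0.68). The second probe, A_52_P517683, had means of -0.04, -0.05 and 0.51 with 5 mM and -0.04, 0.09 and 0.76 with 1 mM. It was called at 1 mM 24 h (adjusted p = 0.0025). At 5 mM it passed 24 h minus 8 h (adjusted p = 0.0333) and 24 h minus 3 h (adjusted p = 0.0228). The lead probe did not pass the latter (adjusted p = 0.0684). Leaving out single arrays was not done for the second probe.

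**Figure D2:**
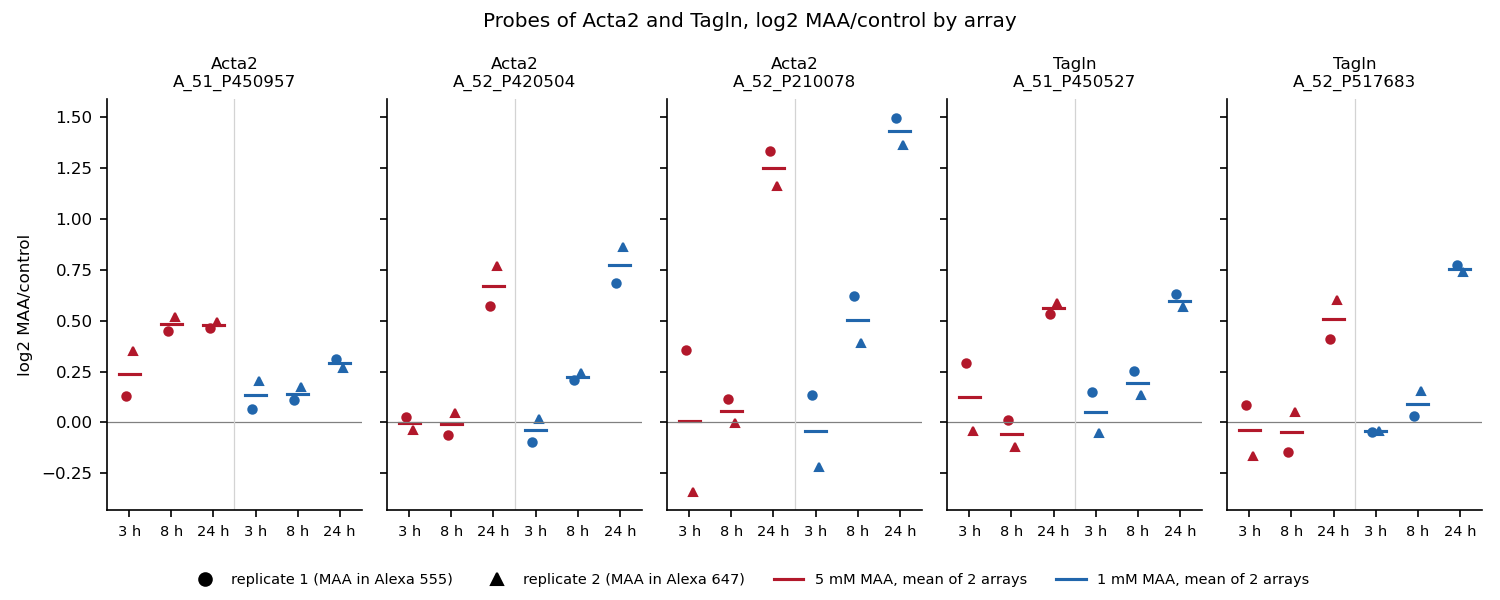
Log2 MAA/control (vertical axis) of the 3 Acta2 probes and the 2 Tagln probes at each time of 5 mM (red) and 1 mM (blue), with a point per array and a bar at the mean of 2. The 2 Tagln probes and the Acta2 probes A_52_P420504 and A_52_P210078 are highest at 24 h at both concentrations, while Acta2 A_51_P450957 lies at 0.48 at both 8 h and 24 h of 5 mM.

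Actg2 and Tpm1 were not called in any of the 6 conditions. Actg2, the enteric smooth muscle actin, gave 0.14 and 0.41 at 5 mM 3 h, 0.15 and 0.20 at 8 h, and 0.46 and 0.48 at 24 h, and between 0.14 and 0.23 on the 6 arrays of 1 mM. Its 24 h mean of 0.47 with 5 mM had an adjusted p of 0.00216. Tpm1 encodes a tropomyosin, which lies along actin filaments. Its lead probe had means of -0.04, 0.08 and 0.14 with 5 mM and 0.02, 0.08 and 0.28 with 1 mM, none with an adjusted p under 0.05. On all 6 pairs replicate 2 of this lead probe was higher than replicate 1. The 5 mM and 1 mM responses of the lead probe differed by -0.00064 at 8 h, with a 95% interval of -0.34 to 0.34. The second Tpm1 probe, A_52_P532910, had means of -0.03, 0.06 and 0.16 with 5 mM and 0.02, 0.04 and 0.28 with 1 mM. Of these only the 1 mM 24 h mean passed an adjusted p of 0.05 (adjusted p = 0.0288), and it was not called.

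The channel levels showed that several of these genes changed in untreated cells too. These levels are single-channel log2 values on a common scale, open to dye bias, from 4 control channels per time. The control level of Tagln was 11.0 to 11.2 at 3 h, 11.9 to 12.1 at 8 h and 9.29 to 9.40 at 24 h, a fall of the median by 2.64 from 8 h to 24 h. In MAA-treated cells Tagln stood at 9.88 to 9.94 at 24 h, below its own range of 11.9 to 12.2 at 8 h. The higher ratio at 24 h thus stood beside a fall of Tagln in both channels that was smaller in the MAA channel. On the second Tagln probe the control median fell by 3.02. Control levels lower by over 2-fold at 24 h than at 8 h were found for 2.98% of all probes.

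Acta2 on A_52_P210078 had control levels of 7.24 to 7.69 at 3 h, 8.92 to 9.14 at 8 h and 7.35 to 7.51 at 24 h, and on A_52_P420504 of 11.6 to 11.7, 13.1 to 13.2 and 11.95 to 12.09. These probes were thus highest in untreated cells at 8 h. In MAA-treated cells A_52_P210078 was 9.04 to 9.54 at 8 h and 8.64 to 8.94 at 24 h. The lead probe of Acta2 did not have this peak, with control levels of 13.9 to 14.1 at 3 h and at 8 h and 14.4 to 14.5 at 24 h.

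Cnn1 rose in untreated cells from 7.44 to 7.54 at 3 h to 8.61 to 8.81 at 8 h, and stood at 8.26 to 8.52 at 24 h. Control levels higher by over 2-fold at 8 h than at 3 h were found for 4.39% of all probes. Its MAA-treated levels, 9.37 to 9.95 at 8 h, were above all 4 control levels of that time. Vcl had control levels of 14.2 to 14.3 at 3 h, 14.1 to 14.3 at 8 h and 13.9 to 14.1 at 24 h, its median moving by -0.20 from 3 h to 24 h. Srf control levels were 11.2 to 11.3 at 3 h, 10.7 to 11.0 at 8 h and 11.6 to 11.8 at 24 h. Each ratio used the control of its own time, and how far these changes enter the ratios was not tested.

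**Figure D3:**
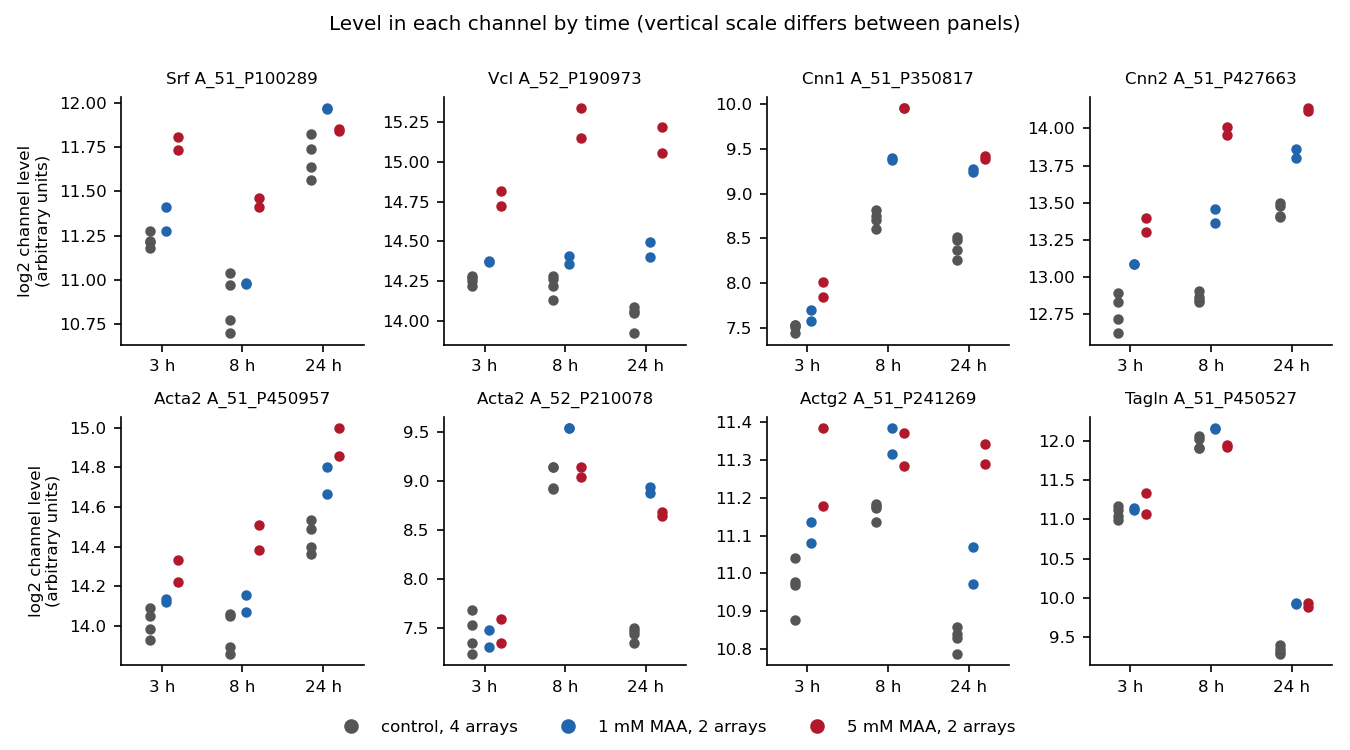
Log2 channel level (vertical axis, arbitrary units, a scale of its own in each panel) of 8 probes at 3, 8 and 24 h, with a point for each of 4 control channels (grey) and for 2 channels each of 1 mM (blue) and 5 mM MAA (red). Control Tagln falls to 9.29 to 9.40 at 24 h, and Acta2 probe A_52_P210078 peaks in controls at 8 h.

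Ablim3 encodes an actin-binding LIM protein that stimulates SRF signalling through the STARS protein, and it is described here without a test at 8 h and 24 h. On its lead probe, A_52_P640512, the processed signal in the MAA channel was 97.5 and 87.3 at 5 mM 8 h and 204 and 196 at 24 h. With 1 mM it was 11.5 and 11.3 at 8 h and 6.85 and 6.05 at 24 h, and at 3 h it lay between 1.67 and 3.42 at either concentration. The control signal lay between 1.60 and 11.5 and was not well above background on any of the 12 arrays. The rise with 5 mM from 3 h to 24 h thus lies in the MAA channel. Any fold is a lower limit, computed from the channel levels on the common scale and not from the processed signals. The limits were 5.47-fold at 5 mM 8 h, 15.5-fold at 24 h and 1.48-fold at 1 mM 8 h. They depend on the background correction. After normexp and loess the mean log2 ratios were 1.17 and 1.77 at 8 h and 24 h of 5 mM and 0.29 at 1 mM 8 h. Each of these is less than its limit. No fold is given at 3 h or at 1 mM 24 h, where neither channel was well above background. The measured log2 ratios were 4.41 and 4.28 at 5 mM 8 h and 4.15 and 5.82 at 24 h, and 2.84 and 2.32 at 1 mM 8 h.

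The other Ablim3 probes did not show this rise. On A_51_P427794 every replicate 1 array was below 0, from -3.50 to -0.47, and every replicate 2 array above it, from 0.67 to 2.51, so the sign went with the dye. On A_52_P83124 the means lay between -0.61 and 0.41. The mean over the 3 probes at 5 mM was 1.80 at both 8 h and 24 h. Normexp adds an offset of 50 to both channels of every spot. With loess after it, the lead probe gave 1.17 and 1.77 at these times. Other offsets were not tried.

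**Figure D4:**
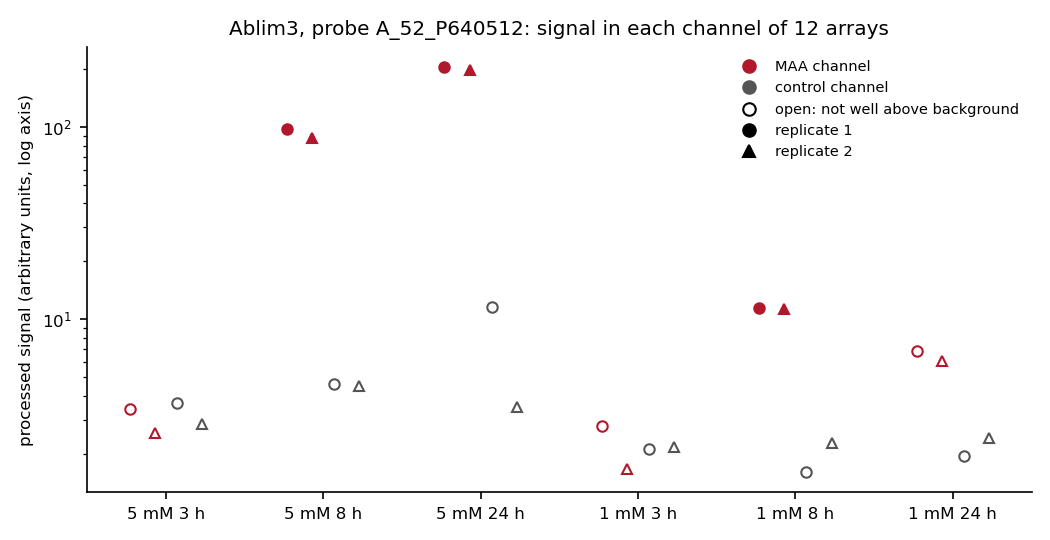
Processed signal of the lead Ablim3 probe (vertical log axis, arbitrary units) in the MAA (red) and control (grey) channel of each of 12 arrays, circles for replicate 1 and triangles for replicate 2, open where the channel was not well above background. All 12 control points are open, and the MAA points reach 87.3 to 97.5 at 5 mM 8 h and 196 to 204 at 24 h.

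Other genes of the pathway were taken as lists by function. Beside the counts below, 2.02%, 3.06% and 3.85% of all probes were called higher with 5 mM at 3, 8 and 24 h. Called lower were 1.74%, 2.49% and 1.77%. With 1 mM the shares called higher were 1.32%, 1.72% and 3.26%. At an unadjusted limma p under 0.05, 16.16%, 19.26% and 17.98% of all probes were higher with 5 mM. The share lower at that p was not counted. Among the other members of the villin headpiece and ABLIM family, which cap, bundle or anchor actin filaments, 4 of 7 were called higher with 5 mM at 8 h and the same number at 24 h, beside 0 at 3 h. Among them were Vill (1.88 and 2.27 at 8 h and 24 h), Dmtn (1.14 and 2.31) and Vil1, whose control channel was well above background on 0 of 2 arrays at 8 h and 1 of 2 at 24 h. At 3 h limma gave 1 at an unadjusted p under 0.05. The study had named this family from these samples, so the count is not independent evidence of its direction. With 1 mM, 2 were called higher at 8 h and 3 at 24 h.

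Among 21 measured SRF cofactors and regulators, 0, 3 and 2 were called higher with 5 mM at 3, 8 and 24 h and none lower, beside 7 higher and 2 lower at 3 h at an unadjusted limma p under 0.05. Fhl2, a LIM cofactor of SRF, was 1.46 at 8 h and 1.56 at 24 h. Limk1, the kinase that inactivates cofilin, was 1.21 at 8 h. The MRTF genes themselves were not called. Mrtfa was 0.32, 0.31 and -0.05 with 5 mM, with no adjusted p under 0.05. Mrtfb was -0.02, -0.37 and -0.52, with adjusted p of 0.0326 at 8 h and 0.00764 at 24 h. Myocd, which encodes the muscle cofactor myocardin, was not well above background on any control channel.

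The immediate early targets of SRF were the list with the most calls at 3 h, 6 of 10 with 5 mM, followed by 4 at 8 h and 4 at 24 h. With 1 mM, 2, 3 and 2 were called. The study had already reported Egr1 as induced at 3 h in these samples, and the lists were chosen with earlier results known. These counts are thus not independent evidence of a direction. Ccn2, a matricellular protein gene, was 2.01, 2.47 and 2.17 at 3, 8 and 24 h of 5 mM, and Egr1, a zinc finger factor gene, was 2.18 at 3 h. Ccn1 was 2.06 at 8 h and Fos 1.84 at 3 h. The list's median at 5 mM was 1.47, 0.61 and 0.76, against 0.34, 0.51 and 0.52 for the 8 members.

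Among 11 other smooth muscle contractile genes, 0, 2 and 4 were called higher with 5 mM at 3, 8 and 24 h, and 1 was called lower at 24 h. Lmod1, which encodes the actin nucleator leiomodin, was 2.88 at 8 h and 2.69 at 24 h. Csrp2 was 1.30 and Des, the desmin gene, 1.30 at 24 h. Over the 12 arrays the control channel was well above background on 9 for Lmod1 and on 10 for Des. Mylk, the myosin light chain kinase gene, named after its value was seen as the call in the other direction, fell by 1.03 at 24 h. At 3 h 3 of these genes were higher at an unadjusted limma p under 0.05. Of 19 striated muscle contractile genes, 0, 1 and 5 were called higher with 5 mM and 0, 1 and 2 lower. Tnni1 was 1.67, Myoz2 1.65 and Mylpf 1.63 at 24 h. Csrp3 was -2.96 at 24 h, where its MAA channel was not well above background, so the measured size is not a fold.

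Of 13 other actins, tropomyosins and calponins, 0 were called at any time of 5 mM by limma, and at an unadjusted p under 0.05 1, 3 and 5 were higher and 1, 0 and 1 lower. At that p, 16.16%, 19.26% and 17.98% of all probes were higher at 3, 8 and 24 h of 5 mM. With 1 mM at 24 h Acta1 was 0.99 and Actc1 0.85, both called, and these are the striated muscle actins whose sequence is close to that of Acta2. Of 18 focal adhesion and stress fibre genes, 2, 1 and 1 were called higher with 5 mM, beside 2.02%, 3.06% and 3.85% of all probes. Lpp, a zyxin family gene, was 1.56 at 3 h.

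**Figure D5:**
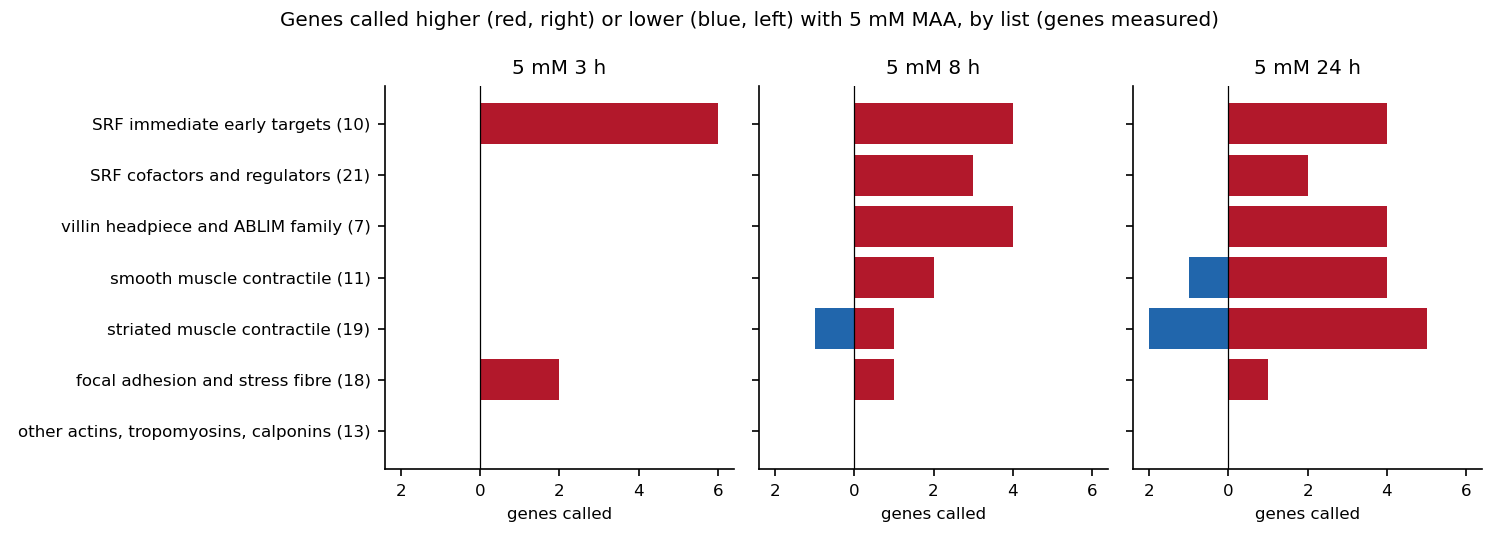
Number of genes called (horizontal axis) in 7 lists at 3, 8 and 24 h of 5 mM MAA, higher with MAA in red to the right and lower in blue to the left, with the number measured in brackets. SRF immediate early targets have 6 calls at 3 h, and other actins, tropomyosins and calponins have 0 at each time.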

How the data were processed

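The 12 arrays compare MAA-treated with control TM3 cells. The authors scanned them and used Agilent Feature Extraction 9.5.3.1 to subtract background and to normalize dyes within each array (linear and LOWESS), and the deposited intensity values are these processed signals. The deposited tables of log10 ratios, already MAA over control, served as an alternative. Control spots and outlier spots (124 to 208 per array) were left out, repeated spots averaged, and log2 ratios turned to MAA over control without centring. The file's name column holds accessions, so probes were named through RefSeq for 22147 of 41174 probes. All 12 arrays were fitted with limma 3.58.1 in R 4.3.3, with 1 coefficient per condition and 6 residual and 1.52 prior degrees of freedom. Between 61.6% and 70.6% of probes were well above background per channel, which with n = 2 arrays limits the precision. A fold against a channel below background used, per array, the lowest channel level well above background. Channel levels were scaled by Aquantile normalization. Replicates are separate pools of MAA-treated cells, and p-values measure the spread between these arrays. Figures were drawn with Python 3.11.15 and matplotlib 3.10.9.

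The members and lists were chosen with earlier results of these data known. Named were all members with all their probes, from each list at most 4 called genes with the largest change at 5 mM, the MRTF genes and Myocd, and the 5 genes most like Acta2 over 12 arrays. The genes most like Ablim3, which the rule also asks for, are not given, because its control channel was not well above background on any array. Alternatives were normexp (offset 50) with loess, the deposited ratios, centring, leaving out dim probes, keeping outlier spots, the replicate number or slide as a block, other p-value rules, the arrays of a concentration alone, the mean of a gene's probes, and leaving out each array. Each slide held at most 1 array of a condition, so within-slide values are those of single arrays. The fit was tested on simulated data. Some genes that the rule picks are not reported here. Rosetta Resolver values were not used here.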

Additional observations from a re-analysis of the deposited data

Results flagged for a closer look

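Responses of 4 members differed between concentrations or times in limma contrasts with an adjusted p under 0.05. Of all probes, 3.40%, 10.1% and 8.41% passed between concentrations at 3, 8 and 24 h. Within 5 mM, 5.10% passed for 8 h minus 3 h, 8.91% for 24 h minus 8 h and 15.8% for 24 h minus 3 h. For Vcl the 5 mM response was above that of 1 mM by 0.44 at 3 h, 0.96 at 8 h and 0.74 at 24 h on the log2 scale, and within 5 mM it was above the 3 h response by 0.53 at 8 h and 0.60 at 24 h. For Cnn2 the 8 h response to 5 mM was above that to 1 mM by 0.52 and above the 3 h response by 0.55. For Cnn1 the 5 mM response was above that at 3 h by 0.79 at 8 h and by 0.55 at 24 h. For Tagln the 24 h response to 5 mM was above the 8 h response by 0.62. In each contrast both arrays of the higher condition were above both of the lower. As described above, each of the 4 genes lost its call in some of these contrasts when single arrays were left out. Control levels of Tagln and Cnn1 also changed with time, and their part in these differences was not tested.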

How the results depend on the processing

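All 7 calls of single members against control kept their direction under every alternative, and 6 kept the call under all 22, the exception being Tagln at 1 mM 24 h. Counts of members called at 1 mM moved to 1 at 24 h after normexp and loess and with the slide as a block, and to 2 at 8 h with arrays centred on their median. The mean of a gene's probes gave 3 at 1 mM 24 h, adding Acta2 (0.83). Counts in the contrasts were less stable. With normexp and loess they were 4 and 2 between concentrations at 8 h and 24 h and 3 between 24 h and 8 h. The deposited log10 ratios, and likewise leaving out dim probes, gave 4 between concentrations at 8 h and 2 between 24 h and 8 h. Centring, which moved the median of all probes by 0.10 at 5 mM 3 h, gave 0 between concentrations at 3 h, 1 at 8 h and 0 in all 3 contrasts of time. The arrays of 5 mM alone gave 0 in all 3 contrasts of time. The mean of a gene's probes gave 3 between 24 h and 8 h and 4 between 24 h and 3 h. With the replicate number, which is also the dye orientation, as a block, the counts were 5 between concentrations at 8 h, 3 between 24 h and 8 h and 4 between 24 h and 3 h, and the block changed no call against control. Srf passed only with this block, for 5 mM minus 1 mM at 8 h (adjusted p = 0.0339), 24 h minus 8 h (0.0387) and 24 h minus 3 h (0.0315). Cnn1 and Acta2 between concentrations at 8 h, and Cnn2 between 24 h and 8 h, each passed under 5 alternatives, the replicate block among them. Differences of replicate 1 minus 2 correlated between conditions with r from 0.075 to 0.514 (median 0.376), over 0.1 in 14 of 15 pairs of conditions. Arrays of the same number thus mostly deviated together, and no shared culture is given for a number. As 1 pair was under 0.1, the fit without the block was kept, and the counts in the contrasts depend on this choice. The causes were not tested.

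Leaving out each array gave 0 to 0, 3 to 3 and 1 to 2 calls at 3, 8 and 24 h of 5 mM and 0 to 0, 1 to 2 and 1 to 2 at 1 mM. The contrasts between concentrations gave 0 to 0, 1 to 2 and 1 to 1 at 3, 8 and 24 h, and those of time 0 to 3 for 8 h and 3 h, 0 to 1 for 24 h and 8 h and 1 to 3 for 24 h and 3 h. Of 648 values of single genes under alternatives, 632 kept their direction and side of the threshold or moved by less than the pair's spread. Ablim3, with a control channel never well above background, moved most, to 1.17 and 1.77 at 8 h and 24 h of 5 mM and 0.29 and 0.13 at 1 mM after normexp and loess. The mean of its probes gave 0.30 and 0.48 at 8 h and 24 h of 1 mM. At 1 mM 24 h neither channel of its lead probe was well above background, so the values there are not folds.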

Other observations

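Over the 12 arrays and 10629 genes whose lead probe was well above background in a channel of each array, the genes whose log2 ratios were most like those of the Acta2 lead probe were Ptbp3 (Pearson r = 0.942), Itga6 (0.938), Pcgf5 (0.937), 1700037H04Rik (0.934) and Fkbp5 (0.932). Itga6, an integrin subunit gene, had means of 0.60, 0.90 and 1.15 with 5 mM and 0.25, 0.15 and 0.46 with 1 mM. The arrays share conditions and dyes, and the likeness is a description.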
